A study of Homo sapiens with 60 samples.

Results

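The ABC transporter family was followed in 1321N1 cells, a human astrocytoma line that serves as an astrocyte-derived model, treated with arsenic, cadmium, or mercury. Members were the protein-coding genes whose symbol is ABCA to ABCG followed only by a number, a rule that uses no measured value and gave 45 of 62703 genes. Cells received 2.55 µM sodium metaarsenite, 2.3 µM cadmium chloride, or 20 µM mercury chloride in complete medium, or were left non-treated, and were collected after 1.5, 3, 6, 12, or 24 h. RNA was sequenced from the 3′ end of polyadenylated transcripts, with 3 libraries in each of the 20 groups and 60 libraries in all. The authors chose the concentrations for a limited loss of viability at a later time, and all groups are of this 1 cell line. The non-treated libraries of a time point are shared by the 3 metals, so the comparisons with non-treated cells are not independent of each other.

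ABC proteins bind and hydrolyze ATP through a conserved nucleotide-binding domain, and most of them use that energy to move a substrate across a membrane. The ABCC proteins export organic anions and drugs, among them conjugates with glutathione, the cell's main small thiol, which binds arsenic and mercury. ABCC1 (multidrug resistance protein 1) and ABCC2 (multidrug resistance protein 2) are known exporters of such metal conjugates. Other members carry lipids and sterols (ABCA and most ABCG genes), act in mitochondria, lysosomes, or peroxisomes (several ABCB genes and the ABCD genes), or have no membrane part and act on ribosomes (ABCE1 and the ABCF genes).

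Total counts per library ranged from 2215276 to 4404609, with a median of 3291417, and no library stood apart from its replicates (correlations of log values 0.958 to 0.977). Levels are given as CPM, the count relative to the TMM-scaled library size. A 3′ library gives about 1 read per transcript regardless of its length, so CPM of different genes were compared without dividing by length. Of the 10 astrocyte and glial markers counted, GFAP had 6 counts in all 60 libraries, S100B had 1, and AQP4 and ALDH1L1 had 0. SLC1A2 and SLC1A3 had non-treated means of 0.188 and 0.838 CPM and NES had 3.82 CPM, whereas GJA1 (19.1 CPM), SOX9 (78.9 CPM), and VIM (4434 CPM) were readily counted. The 7 markers of blood, endothelial, and epithelial cells had non-treated means of at most 0.621 CPM. Of the 3 neuronal markers, SYT1 was at 9.67 CPM, and RBFOX3 and SNAP25 were at 0.0604 and 0.181 CPM.

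Of the 45 members, 21 had enough counts to be tested among 12341 genes. The other 24 were not tested. Of these, ABCB11, ABCC6, ABCD2, and ABCG5 had 0 counts in all libraries, and the most abundant was ABCG2 with 143 counts in total. The tested members were therefore those expressed above a minimum and do not stand for the whole family.

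In non-treated cells the most abundant members were the ABC proteins without a membrane part (ranked in the plot of non-treated levels). ABCF1, which acts in translation initiation, was at 529.7 ± 63.7 CPM (SD, n = 15 libraries over the 5 time points). ABCE1, which splits ribosomes after termination, was at 137.9 ± 13.6 CPM and ABCF2 at 85.0 ± 10.3 CPM. The conjugate exporters were lower, with ABCC4 at 35.4 ± 4.30 CPM, ABCC5 at 30.8 ± 5.01 CPM, ABCC2 at 25.2 ± 7.34 CPM, ABCC1 at 22.1 ± 4.53 CPM, and ABCC10 at 5.07 ± 1.49 CPM. ABCC1 lay at percentile 50.5 and ABCC2 at percentile 53.7 of all genes tested, whose median was 21.7 CPM. At the low end, the sulfonylurea receptor gene ABCC9 was at 1.58 CPM and the cholesterol exporter gene ABCA1 at 1.14 CPM.

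**Figure D1:**
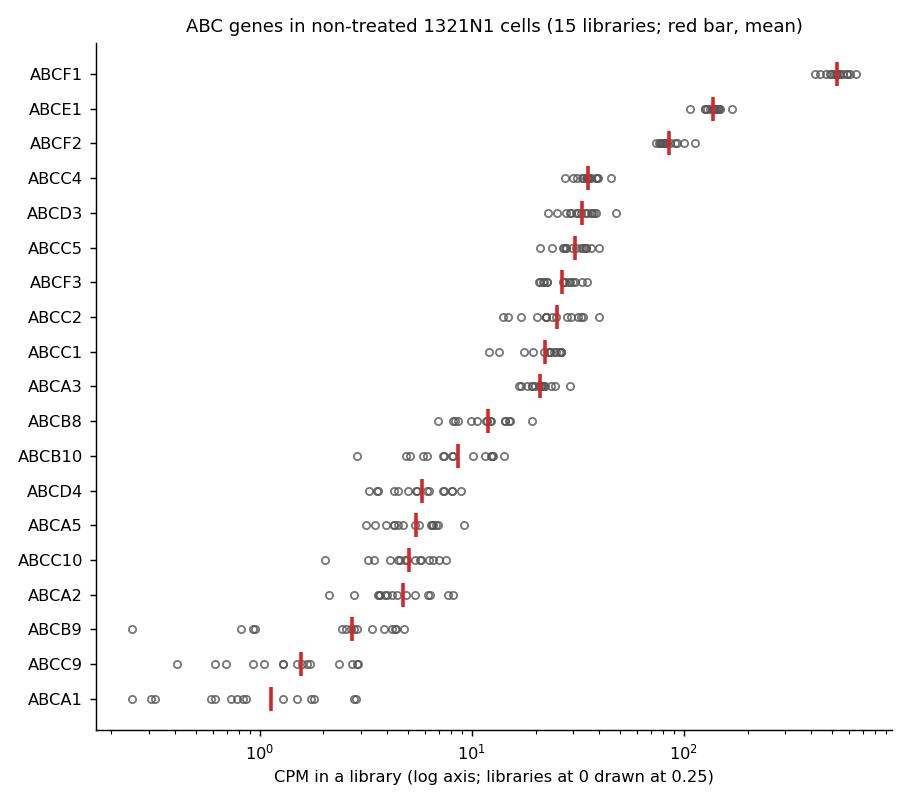
Level of each of 19 tested ABC genes in the 15 non-treated libraries, on a log axis of CPM, with circles for libraries and a red bar for the mean. ABCF1, ABCE1, and ABCF2 sit apart at the top, and ABCC1 and ABCC2 lie within a run of genes whose libraries overlap.

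Of the 18 neighbouring pairs in this order, 13 differed by less than the larger SD of the pair. The exceptions were ABCF1 over ABCE1, ABCE1 over ABCF2, ABCF2 over ABCC4, ABCA3 over ABCB8, and ABCA2 over ABCB9. From ABCC4 down to ABCA3, a run that includes ABCC1 and ABCC2, neighbours were thus not resolved. With time in culture, 0 of the 21 members changed in non-treated cells at 3, 6, 12, or 24 h against 1.5 h (edgeR's quasi-likelihood test, Benjamini-Hochberg adjusted p under 0.05), where 0.122%, 0.486%, 4.09%, and 3.29% of all genes changed. At an unadjusted p under 0.05 the numbers of members were 2, 1, 3, and 4 (all genes 4.41%, 11.6%, 16.9%, and 17.1%), and DESeq2 called 0, 0, 1, and 2. Later times were not tested against each other, so a change between them could be missed. Non-treated ABCC2 had a mean of 25.7 CPM at 1.5 h. Its libraries lay at 14.1 to 22.5 CPM at 3 h (mean 17.1) and at 29.4 to 39.8 CPM at 24 h (mean 33.9), without overlap.

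Each metal was compared with time-matched non-treated cells to ask which members respond. Over the 15 comparisons the 21 members gave 315 tests, of which 13 passed (4.13%), against 5.71% over all genes, so members were not called more often than other genes. Log2 fold changes (LFC) are given with their SE. Among the members called, ABCC1, ABCC2, ABCA1, and ABCC9 rose, and ABCA3 and ABCB8 fell.

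The calls came late. At 1.5 and 3 h, 0 members changed with any metal in edgeR or DESeq2. Of all genes, 0.0729%, 0%, and 0.567% changed at 1.5 h with arsenic, cadmium, and mercury, and 0.138%, 0.203%, and 1.55% at 3 h. At an unadjusted p under 0.05 there were 1, 3, and 2 members at 1.5 h (all genes 9.88%, 8.03%, and 5.62%) and 0, 1, and 0 at 3 h (7.37%, 8.18%, and 8.56%). At 6 h, 1 member fell with arsenic (all genes 0.916%), 0 changed with cadmium (all genes 2.05%, 6 members and 13.2% of all genes at an unadjusted p under 0.05, 1 member by DESeq2), and 1 rose with mercury (all genes 7.48%). At 12 h, 0 members changed with arsenic (all genes 4.11%, 3 members and 15.1% of all genes at an unadjusted p under 0.05, 0 by DESeq2), 2 rose with cadmium (all genes 8.18%), and 1 rose with mercury (all genes 16%). At 24 h, 2 members changed with arsenic (all genes 14.3%), 0 with cadmium (all genes 2.19%, 4 members and 12.8% of all genes at an unadjusted p under 0.05, 1 member by DESeq2), and 6 of 21, or 28.6%, with mercury (all genes 27.8%). The share with mercury at 24 h was thus close to that of all genes. At 24 h, in the order arsenic, cadmium, and mercury, the members had median LFCs of -0.04, 0.08, and 0.14, and all genes had 0.00, -0.01, and -0.02.

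**Figure D2:**
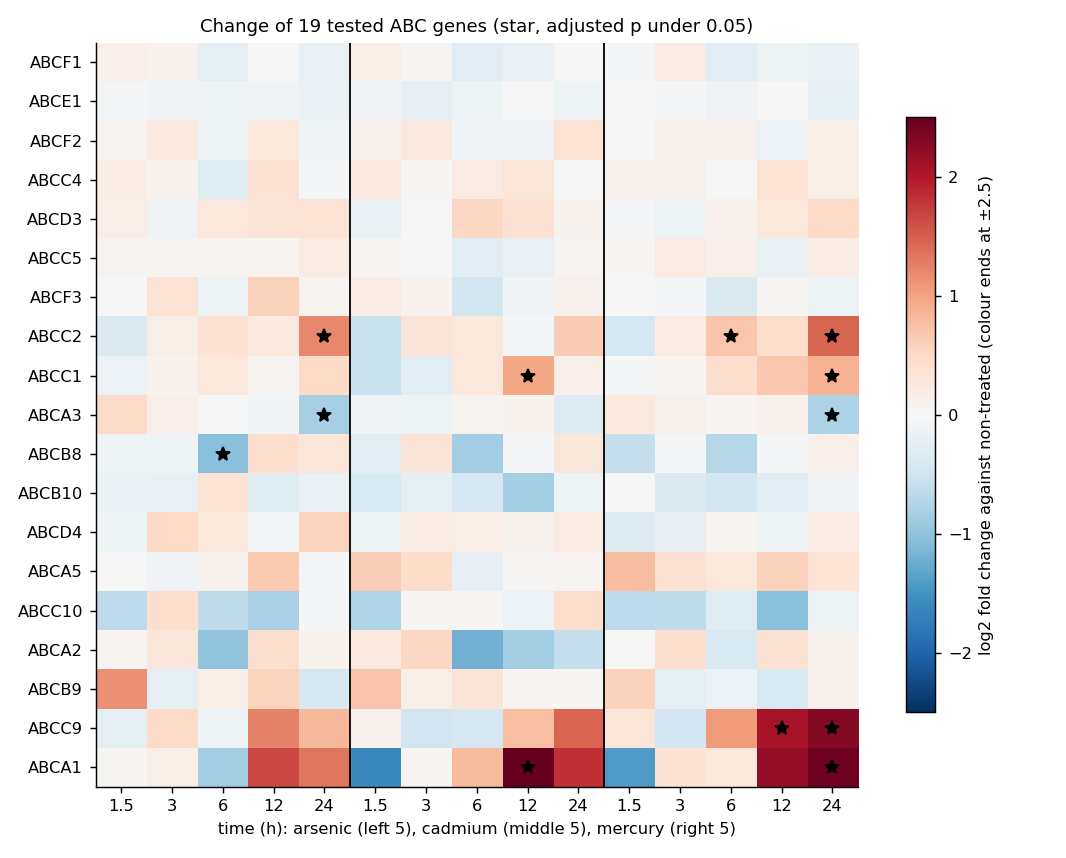
LFC against time-matched non-treated cells for 19 tested ABC genes (rows, ordered by non-treated level) with arsenic, cadmium, and mercury at 5 time points each, with stars for an adjusted p under 0.05. The 12 stars lie on 6 rows, and none is at 1.5 or 3 h.

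ABCC2 was the member called most often, in 3 of 15 comparisons, and rose with arsenic and mercury. The gene lies at chr10:99782640-99852594 on the plus strand (ENSG00000023839, GRCh38), and the last 400 bases of its exons overlap no other gene. At 24 h the non-treated libraries had 29.4, 32.6, and 39.8 CPM, the arsenic libraries 86.0, 76.7, and 69.8 CPM, and the mercury libraries 99.8, 82.7, and 94.8 CPM. Every treated library of both metals was above every non-treated library. With arsenic the LFC was 1.19 (SE 0.18, adjusted p = 6.22e-07), and with mercury it was 1.45 (SE 0.18, adjusted p = 1.38e-09).

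The cadmium libraries at 24 h had 56.4, 47.0, and 53.5 CPM of ABCC2. These also lay above the 3 non-treated libraries, but the LFC of 0.63 (SE 0.18) narrowly missed the threshold (adjusted p = 0.0502). It passed with RLE size factors, with the stricter filter on low counts, with DESeq2, and without non-treated replicate 3. In the remaining fits it did not pass, with an adjusted p up to 0.164 under other settings. Without non-treated replicate 1 the LFC was 0.53 (adjusted p = 0.257). In the direct comparisons at 24 h, ABCC2 was lower with cadmium than with mercury by an LFC of -0.82 (SE 0.17, adjusted p = 0.000274) and higher with arsenic than with cadmium by 0.56 (SE 0.17, adjusted p = 0.0256). The latter was lost without arsenic replicate 1 or 2 (adjusted p = 0.126 and 0.0635) or cadmium replicate 2 or 3 (0.102 and 0.0619). Between arsenic and mercury the LFC was -0.26 (95% interval -0.60 to 0.09, adjusted p = 0.380), so a difference of either sign within that interval remained possible. In these 3 direct comparisons 20% of all genes changed for cadmium against mercury, 10.2% for arsenic against cadmium, and 11.4% for arsenic against mercury.

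At 6 h, non-treated libraries had 17.1, 22.3, and 20.2 CPM of ABCC2 and mercury libraries had 28.9, 32.8, and 34.4 CPM. The groups did not overlap, and ABCC2 rose with an LFC of 0.69 (SE 0.21, adjusted p = 0.0258), a call that was lost without mercury replicate 2 (adjusted p = 0.0670) or 3 (0.0756) and without non-treated replicate 1 (0.125) or 3 (0.0720). At 12 h, mercury libraries had 29.9, 45.3, and 42.6 CPM against 33.6, 31.8, and 22.5 CPM in non-treated cells, and the groups overlapped (LFC 0.44, adjusted p = 0.117, but 0.60 and 0.0419 without mercury replicate 1). The rise against non-treated cells was larger at 24 h than at 12 h with arsenic by an LFC of 0.94 (SE 0.26, adjusted p = 0.0442) and with mercury by 1.01 (SE 0.26, adjusted p = 0.0483). Both lay near the threshold: of the 12 libraries behind each, the arsenic call was lost without replicate 1 or 2 of any of the 4 groups (adjusted p up to 0.146), and the mercury call without any library except mercury replicate 2 and non-treated replicate 3 at 12 h and non-treated replicate 3 at 24 h (up to 0.211). With cadmium this difference was 0.66 (95% interval 0.11 to 1.21, adjusted p = 0.369). Of the members, 0 were called in this comparison for cadmium by edgeR or DESeq2 (3 at an unadjusted p under 0.05, all genes 10%) and 1, ABCC2, for each of the others. Of all genes, 0.624% changed in it for mercury, 0.381% for cadmium, and 1.57% for arsenic.

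**Figure D3:**
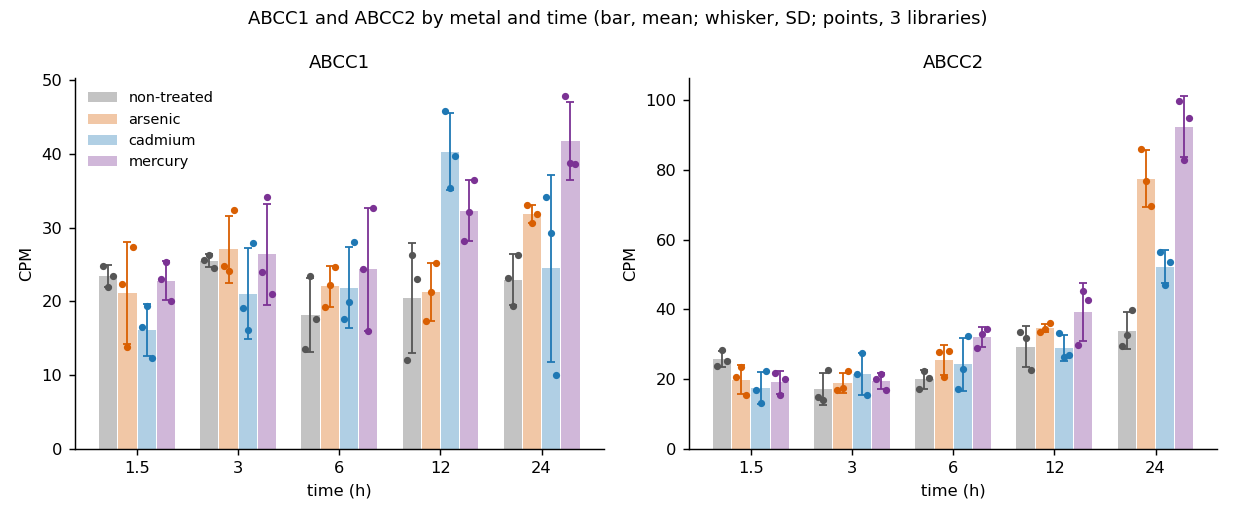
ABCC1 and ABCC2 in CPM for each metal at each time, with bars for the mean of 3 libraries, whiskers for the SD, and points for the libraries. ABCC2 was highest at 24 h with mercury and arsenic, and ABCC1 reached its highest means at 12 h with cadmium and at 24 h with mercury.

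ABCC1, the exporter for which the glutathione conjugates of arsenic and mercury are known substrates, rose with cadmium at 12 h and with mercury at 24 h. The gene lies at chr16:15949138-16143257 on the plus strand (ENSG00000103222), again with a 3′ end clear of other genes. At 24 h the non-treated libraries had 23.2, 19.4, and 26.3 CPM and the mercury libraries 47.8, 38.7, and 38.7 CPM. All mercury libraries were above all non-treated libraries, with an LFC of 0.86 (SE 0.25, adjusted p = 0.00578). The arsenic libraries had 33.1, 30.7, and 31.8 CPM, also above the non-treated range, but the LFC of 0.47 (95% interval -0.04 to 0.98) was not called (adjusted p = 0.226).

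The cadmium libraries at 24 h disagreed on ABCC1, with 34.1, 29.2, and 10.1 CPM. Replicate 3 was below every non-treated library and the other replicates above them. The LFC was 0.13 (95% interval -0.38 to 0.64, adjusted p = 0.903). The direct comparison of cadmium with mercury at 24 h gave an LFC of -0.73 (SE 0.24, adjusted p = 0.0250), but it rested on replicate 3: without that library the LFC was -0.40 (adjusted p = 0.295), and without mercury replicate 1 it was -0.62 (adjusted p = 0.118). In the same library ABCC2, at 53.5 CPM, was between the other 2 cadmium libraries.

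At 12 h the cadmium libraries had 45.8, 35.4, and 39.7 CPM of ABCC1 and the non-treated libraries 12.0, 26.2, and 23.0 CPM. The groups did not overlap, and the LFC was 0.97 (SE 0.25, adjusted p = 0.00781). Non-treated replicate 1 was low, and without it the LFC was 0.71 (adjusted p = 0.139). The arsenic libraries, at 17.4, 21.3, and 25.3 CPM, lay within the non-treated range, and ABCC1 was lower with arsenic than with cadmium by an LFC of -0.91 (SE 0.25, adjusted p = 0.0174), in a comparison in which 5.77% of all genes changed. This comparison does not use the non-treated libraries. It lost its call without arsenic replicate 1 or 2 (adjusted p = 0.135 and 0.0649) or cadmium replicate 1 or 3 (0.0856 and 0.0545). The mercury libraries had 28.2, 32.1, and 36.5 CPM, above all non-treated libraries (LFC 0.67, SE 0.26), without passing the threshold (adjusted p = 0.0665). It passed without the filter on low counts (0.0280), with only the compared libraries fitted (0.0167), and without non-treated replicate 2 (0.0309). Without the low non-treated replicate 1, however, the mercury LFC fell to 0.40 (adjusted p = 0.409). At 1.5, 3, and 6 h, ABCC1 was not called with any metal, and its LFC lay between -0.55 with cadmium at 1.5 h and 0.42 with mercury at 6 h.

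ABCC1 and ABCC2 did not keep a fixed proportion. At 24 h the count of ABCC2 divided by that of ABCC1 in the same library was 1.27 to 1.68 in non-treated cells, 2.19 to 2.60 with arsenic, and 2.09 to 2.45 with mercury, with no overlap between either metal and the non-treated libraries. With cadmium at 24 h it was 1.61, 1.65, and 5.32, the last in the library with few ABCC1 counts. With cadmium at 12 h it was 0.681 to 0.743, below the non-treated values of 0.977 to 2.79, since ABCC1 was higher there and ABCC2 was at 33.1, 26.3, and 27.0 CPM (LFC -0.03, adjusted p = 0.957). The lowest of the 3 non-treated values at 12 h was thus above all cadmium values. These ratios were not tested.

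The other conjugate exporters were not called in any comparison with non-treated cells. ABCC4 (multidrug resistance protein 4), which also exports cyclic nucleotides, had LFCs from -0.31 to 0.37 over the 15 comparisons, and ABCC5 (multidrug resistance protein 5) from -0.26 to 0.21, with median SEs of 0.16 and 0.17. At 24 h the means of ABCC4 were 33.5 CPM in non-treated, 37.2 in mercury, 33.1 in cadmium, and 32.3 in arsenic libraries. The 95% intervals of its LFC at 24 h reached at most 0.47, and those of ABCC5 at most 0.53, and LFCs as large as those of ABCC2 with arsenic and mercury lie outside them. The ABCC4 LFC at 12 h was 0.34 with mercury (adjusted p = 0.139), 0.30 with cadmium, and 0.37 with arsenic, none called, with overlapping libraries. The low ABCC10 was less tightly measured, with LFCs from -1.04 to 0.44 and a median SE of 0.46. With mercury at 12 h its libraries lay below the non-treated ones, with means of 2.77 and 5.90 CPM (LFC -1.04, adjusted p = 0.134).

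**Figure D4:**
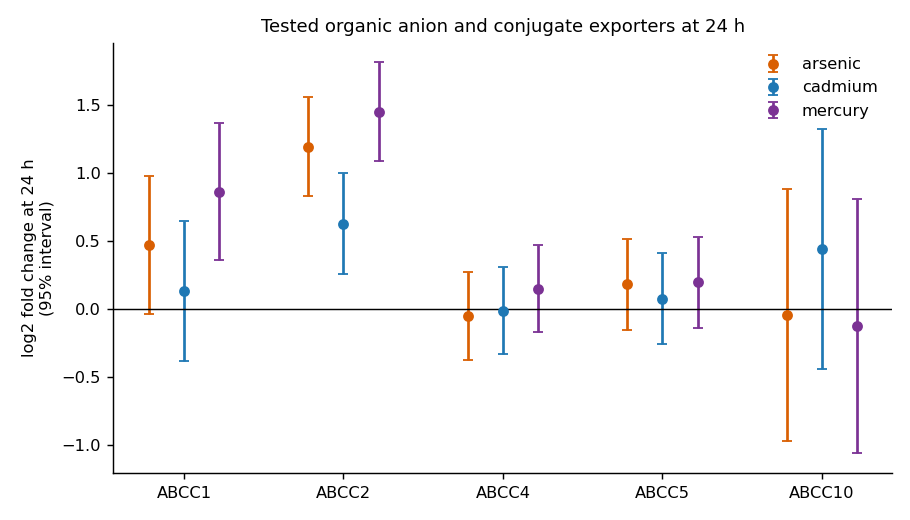
LFC at 24 h against non-treated cells, with 95% intervals, of the 5 tested conjugate exporters for arsenic, cadmium, and mercury. ABCC2 lies above 0 with all 3 metals, ABCC1 with mercury, and the intervals of ABCC4, ABCC5, and ABCC10 include 0.

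The remaining members of this role were hardly counted. ABCC3 had 64 counts in 20 of 60 libraries, of which 27 were in non-treated, 6 in arsenic, 13 in cadmium, and 18 in mercury libraries, and its highest library, with 12 counts, was non-treated. ABCC12 had 7 counts, ABCC11 had 4, and ABCC6 had 0. Of the classical multidrug exporters outside the ABCC genes, ABCG2 (breast cancer resistance protein) had 143 counts in 49 libraries, with 32 counts in the non-treated, 39 in the arsenic, 37 in the cadmium, and 35 in the mercury libraries. ABCB1 (P-glycoprotein) had 1 count in all 60 libraries. In a library of median depth, 3 counts correspond to 0.911 CPM, so levels below this could not be followed. Of the 50-base words near the 3′ end of ABCC6, 28.6% are shared with other genes, and the effect of this on its 0 counts was not tested.

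The lipid and sterol transporters included the largest LFCs. ABCA1, which loads cholesterol onto apolipoproteins and lies at chr9:104781006-104928155 on the minus strand (ENSG00000165029), was close to the limit of detection in non-treated cells. At 12 h the non-treated libraries had 3, 1, and 3 counts and the cadmium libraries 17, 10, and 12 counts. The cadmium counts were all above the non-treated ones, and the LFC was 2.85 (SE 0.79, adjusted p = 0.0130). ABCA1 had at most 7 counts in any non-treated library, below the minimum count of 10. It therefore passed the filter on low counts only through treated libraries, and its calls also stood without that filter. Apart from leaving out libraries, only 3 alternatives gave a result for ABCA1 with cadmium at 12 h, all with a call. Without cadmium replicate 1 the LFC at 12 h was 2.44 (adjusted p = 0.0785), and without non-treated replicate 2 it was 2.57 (adjusted p = 0.0687). At 24 h the non-treated libraries had 5, 2, and 3 counts and the mercury libraries 15, 16, and 18 counts, again without overlap (LFC 2.43, SE 0.73, adjusted p = 0.00875). Summed over 3 libraries and scaled for depth, the ratio was 7.28 with cadmium at 12 h (exact 95% interval 3.22 to 19.3) and 5.51 with mercury at 24 h (2.76 to 12.2), intervals that cover counting error only. The remaining comparisons at these times were above 0 but not called: arsenic had LFCs of 1.65 at 12 h and 1.337 at 24 h, cadmium had 1.83 at 24 h (adjusted p = 0.254), and mercury had 2.20 at 12 h (adjusted p = 0.0555, called without mercury replicate 3 at 0.0456).

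ABCA3, which fills lamellar bodies with phospholipid in lung and is also expressed elsewhere, was moderately abundant and fell at 24 h with arsenic and mercury. It lies at chr16:2275881-2340746 on the minus strand (ENSG00000167972). The non-treated libraries had 24.7, 29.2, and 23.7 CPM, the arsenic libraries 12.7, 16.8, and 13.8 CPM, and the mercury libraries 17.3, 11.5, and 16.2 CPM. All treated libraries of both metals were below the non-treated ones, with LFCs of -0.83 (SE 0.20, adjusted p = 0.00190) with arsenic and -0.79 (SE 0.20, adjusted p = 0.00176) with mercury. The cadmium libraries, at 16.1, 19.8, and 26.9 CPM, overlapped the non-treated ones (LFC -0.32, adjusted p = 0.513). The non-treated mean of ABCA3 was 25.9 CPM at 24 h and 18.2 CPM at 1.5 h (LFC 0.50, adjusted p = 0.157), and the arsenic mean at 24 h was 14.4 CPM. ABCA2 and ABCA5 were not called, and the untested ABCA and ABCG genes of this role had at most 81 counts (ABCA12).

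The promoter sequences of ABCC2, ABCA1, and ABCA3 are shown because these are the called members with a match to a searched motif in the 300 bases around the gene start (RefSeq, GRCh38.p14). Capitals mark the matches. The motifs were the antioxidant response element core TGACNNNGC, the metal response element core TGCACNC or TGCGCNC, the heat-shock element core GAANNTTC, the C/EBP-ATF response element core TGATGNAA, and the AP-1 site TGANTCA, on both strands.
ABCC2 (chr10:99782390-99782689, plus strand): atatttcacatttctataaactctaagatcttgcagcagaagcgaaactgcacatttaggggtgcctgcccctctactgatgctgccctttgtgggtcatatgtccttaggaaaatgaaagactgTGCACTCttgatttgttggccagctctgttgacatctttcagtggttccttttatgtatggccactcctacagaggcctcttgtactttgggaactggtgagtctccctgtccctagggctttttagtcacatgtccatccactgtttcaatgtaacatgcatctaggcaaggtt
ABCA1 (chr9:104928106-104928405, minus strand): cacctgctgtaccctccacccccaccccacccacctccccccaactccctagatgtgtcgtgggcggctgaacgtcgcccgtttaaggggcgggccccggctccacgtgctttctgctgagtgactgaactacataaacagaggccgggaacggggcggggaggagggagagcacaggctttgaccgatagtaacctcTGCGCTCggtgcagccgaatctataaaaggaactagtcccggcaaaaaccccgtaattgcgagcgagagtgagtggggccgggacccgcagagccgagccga
ABCA3 (chr16:2340679-2340978, minus strand): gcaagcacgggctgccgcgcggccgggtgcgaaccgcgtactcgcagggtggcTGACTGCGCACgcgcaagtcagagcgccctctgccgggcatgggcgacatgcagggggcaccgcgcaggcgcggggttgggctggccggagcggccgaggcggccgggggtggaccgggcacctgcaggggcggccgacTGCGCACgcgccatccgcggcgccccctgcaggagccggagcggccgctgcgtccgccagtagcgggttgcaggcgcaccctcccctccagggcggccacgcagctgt
The ABCC2 window holds the metal response element core TGCACTC at -125 from the gene start, and the ABCA1 window holds TGCGCTC at -52. The ABCA3 window holds the antioxidant response element core TGACTGCGC at -197, which overlaps TGCGCAC at -193, and a further TGCGCAC at -58. In the windows of ABCC9 and ABCB8 none of the 5 motifs was found. ABCC1, also called, had no promoter sequence in this source and was not searched. Of all 35093 promoters, 29.5% hold the metal response element core and 13.4% the antioxidant response element core, so both are common, and a match is a description of the letters only. Of the 18 tested members with a promoter in the table, 13 hold the first and 8 the second, 1 holds the AP-1 site (all promoters 7.71%), and 0 hold the heat-shock or the C/EBP-ATF core (all promoters 6.77% and 3.62%). A member counted if any of its windows held the match, and some members have several windows. The shares of all promoters are per window, so the counts of members cannot be compared with them directly. The GC content was 45% in the ABCC2, 62.7% in the ABCA1, and 78% in the ABCA3 window, with a median of 58.7% over all promoters. Members that were never called, such as ABCF1 and ABCC4, hold both of the first 2 cores.

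ABCC9, the regulatory subunit of an ATP-sensitive potassium channel and no transporter itself, rose with mercury at 12 and 24 h. It lies at chr12:21797389-21942543 on the minus strand (ENSG00000069431), and 7.55% of its last 400 exon bases overlap another annotated gene. At 12 h the non-treated libraries had 6, 3, and 4 counts and the mercury libraries 14, 14, and 17 counts. At 24 h the non-treated libraries had 5, 2, and 6 counts and the mercury libraries 14, 31, and 13 counts. The groups did not overlap at either time, with LFCs of 2.06 (SE 0.58, adjusted p = 0.00805) and 2.29 (SE 0.57, adjusted p = 0.00128). ABCC9 also passed the filter only through treated libraries, with at most 9 counts in any non-treated library, and its calls stood without the filter. The counting ratios were 4.25 (exact 95% interval 2.25 to 8.59) at 12 h and 5.02 (2.72 to 9.98) at 24 h. Without a call, the interval was also above 1 with arsenic at 12 h (1.23 to 5.01) and cadmium at 24 h (1.47 to 5.8). It included 1 with arsenic at 24 h (0.832 to 3.78) and cadmium at 12 h (0.782 to 3.83). With cadmium at 24 h the libraries had 20, 6, and 11 counts (LFC 1.46, adjusted p = 0.239), and the direct comparison of arsenic with mercury at 24 h gave an LFC of -1.49 that was not called (adjusted p = 0.0565, 0.0465 by DESeq2). The paralog ABCC8, the other sulfonylurea receptor gene, had 3 counts in all libraries.

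**Figure D5:**
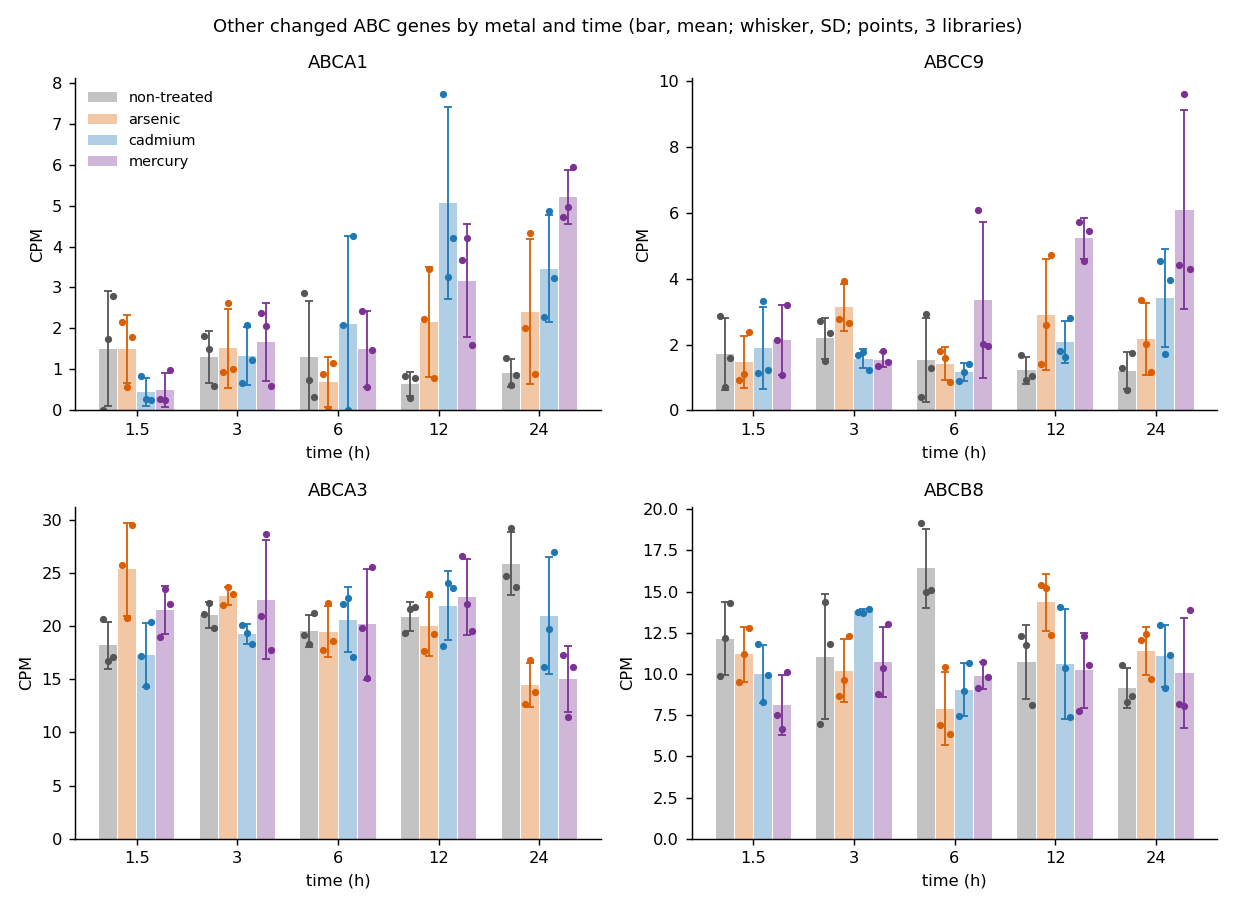
ABCA1, ABCC9, ABCA3, and ABCB8 in CPM for each metal at each time, with bars for the mean of 3 libraries, whiskers for the SD, and points for the libraries. ABCA1 and ABCC9 stay under 10 CPM and are highest at 12 and 24 h in treated cells, and ABCA3 at 24 h lies lower with arsenic and mercury than in non-treated cells, as does ABCB8 at 6 h with all 3 metals.

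ABCB8 (chr7:151028422-151047782, plus strand, ENSG00000197150), a mitochondrial inner membrane protein reported as part of a potassium channel complex, fell with arsenic at 6 h. The non-treated libraries had 19.2, 14.99, and 15.1 CPM, the arsenic libraries 6.90, 10.4, and 6.38 CPM, the cadmium libraries 7.45, 8.98, and 10.7 CPM, and the mercury libraries 9.14, 10.7, and 9.82 CPM. All 9 treated libraries were below the non-treated ones. Only the arsenic LFC of -1.04 passed (SE 0.26, adjusted p = 0.0275), while cadmium had -0.86 (adjusted p = 0.0756, 0.0459 by DESeq2) and mercury -0.72 (adjusted p = 0.0710), and the direct comparisons at 6 h were between -0.32 and -0.14 without a call. The call was lost without arsenic replicate 1 or 3 (adjusted p = 0.157 and 0.201), without non-treated replicate 1, 2, or 3 (0.224, 0.0568, and 0.0536), without the filter on low counts (0.116), and with only these libraries fitted (0.0569). The non-treated mean of ABCB8 was 16.4 CPM at 6 h and 12.1 CPM at 1.5 h (LFC 0.44, adjusted p = 0.534). It was lower still at the other times, with 11.05 CPM at 3 h, 10.7 CPM at 12 h, and 9.17 CPM at 24 h. The non-treated libraries at 3 h ranged from 6.94 to 14.4 CPM. That range holds every cadmium and mercury library at 6 h, but not arsenic replicates 1 and 3. All 3 metals share the high non-treated group at 6 h, and its part in these lower values was not tested.

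ABCB10, a mitochondrial inner membrane protein needed for heme synthesis, had LFCs from -0.86, with cadmium at 12 h (adjusted p = 0.237), to 0.35 and was not called, and neither was the lysosomal peptide transporter ABCB9. ABCB6, a porphyrin transporter, had 18 counts in all libraries. Its annotated 3′ end lies wholly within another protein-coding gene model, and the authors' counting left out reads that overlap more than 1 gene, so its level could not be read from these counts.

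ABCD3, which imports long-chain acyl groups into peroxisomes, and the lysosomal ABCD4, which serves vitamin B12 export, were not called. ABCD3 with mercury at 24 h had a mean of 47.3 CPM against 34.1 CPM (LFC 0.47, adjusted p = 0.0718), with overlapping libraries. Its non-treated replicate 3, at 47.9 CPM, was above the others at 29.1 and 25.2 CPM. Without that library ABCD3 was called with mercury (LFC 0.81, adjusted p = 0.00364) and with arsenic, where the LFC went from 0.34 to 0.67 (adjusted p = 0.0308). Of the members without a membrane part, ABCE1 had LFCs from -0.25 to 0.00 and ABCF1 from -0.28 to 0.19 over the 15 comparisons, with median SEs of 0.10 and 0.10, the smallest of the tested members. ABCE1 with mercury at 24 h was called only without non-treated replicate 1 (LFC -0.33, adjusted p = 0.0321), and ABCF1 with cadmium at 6 h only without cadmium replicate 1 (LFC -0.37, adjusted p = 0.0455). The lowest adjusted p of ABCF1 at 24 h was 0.185, with mercury (LFC -0.17).

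Both ABCF calls were between metals. ABCF3 at 12 h had 36.7, 32.2, and 35.2 CPM with arsenic and 24.0, 22.1, and 21.1 CPM with cadmium, without overlap (LFC 0.64, SE 0.20, adjusted p = 0.0394). This call was lost when any of the 6 libraries was left out (adjusted p = 0.0590 to 0.154). Against non-treated cells, at 21.8, 26.9, and 21.7 CPM, the arsenic LFC was 0.57 (adjusted p = 0.0804). ABCF2 at 24 h had 74.9, 90.6, and 73.0 CPM with arsenic and 97.5, 104.2, and 124.0 CPM with cadmium, again without overlap (LFC -0.44, SE 0.14, adjusted p = 0.0276), a call lost without arsenic replicate 1 or 3 (0.108 and 0.111) or cadmium replicate 3 (0.183). Neither metal was called against non-treated cells for ABCF2 at 24 h, with LFCs of -0.09 and 0.35. In a bulk library, a change in the number of cells that carry a transcript cannot be told apart from a change in its amount per cell, which holds for all members.

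Over the 15 direct comparisons of metals with each other, the members gave 6 calls, which fell on ABCC1, ABCC2, ABCF2, and ABCF3. Arsenic against cadmium gave 2 calls at 12 h (9.52% of members, all genes 5.77%) and 2 at 24 h (9.52%, all genes 10.2%). Cadmium against mercury gave 2 at 24 h (9.52%, all genes 20%). At 1.5, 3, and 6 h, 0 members differed between metals in edgeR or DESeq2. For arsenic against cadmium, arsenic against mercury, and cadmium against mercury, in this order, 0%, 1.56%, and 0.656% of all genes differed at 1.5 h. At 3 h the shares were 0.138%, 1.89%, and 1.78%, and at 6 h they were 1.18%, 4.48%, and 3.78%. In the same order, 2, 0, and 1 members had an unadjusted p under 0.05 at 1.5 h (all genes 6.77%, 13.1%, and 9.32%), 0, 1, and 0 at 3 h (6.57%, 11.7%, and 12.5%), and 1, 2, and 4 at 6 h (9.29%, 17%, and 16%). At 12 h, 0 members differed between arsenic and mercury (all genes 6.84%) or between cadmium and mercury (all genes 3.29%), with 3 members each at an unadjusted p under 0.05 (all genes 20.4% and 14.2%), and DESeq2 called 1 and 0. At 24 h, 0 members differed between arsenic and mercury in edgeR (all genes 11.4%), with 2 at an unadjusted p under 0.05 (all genes 24.2%) and 1 by DESeq2.

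Genes that work with the ABC transporters were counted in lists, at 24 h and in the order arsenic, cadmium, and mercury, where 6.54%, 1.56%, and 13.9% of all genes rose and 7.75%, 0.632%, and 13.9% fell. Of 13 tested targets and regulators of NRF2, the transcription factor of the oxidative and electrophile response, 12, 7, and 11 rose and 0 fell. HMOX1, the heme oxygenase gene, had LFCs of 7.55, 4.79, and 7.21, the reductase gene AKR1C1 had 3.14, 1.72, and 4.34, and OSGIN1 had 2.14, 1.22, and 3.13, all called. Of 18 tested genes of glutathione synthesis and conjugation, 7, 1, and 7 rose and 0, 0, and 2 fell. GCLM, the modifier subunit of the rate-limiting enzyme of glutathione synthesis, had LFCs of 1.95, 0.59, and 2.03, and CHAC1, which degrades glutathione, had 3.11, 0.97, and 3.06, of which the cadmium value of CHAC1 was not called (adjusted p = 0.199). GSTM3, a glutathione transferase gene, had LFCs of 2.03 and 1.68 with arsenic and mercury, both called.

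Of 9 tested metal carriers and pumps outside the ABC family, 3, 1, and 3 rose and 0 fell. SLC30A1, a zinc exporter, had LFCs of 1.07, 1.82, and 1.17, all called, and was thus the carrier that rose with cadmium at 24 h. At 12 h, 3 of the 9 rose with cadmium and 0 fell (8.18% of all genes changed in either direction). SLC39A14, an importer of zinc, manganese, and cadmium, had LFCs of 0.53 and 0.91 with arsenic and mercury, both called, and 0.03 with cadmium. SLC31A1, the copper importer, had 0.47 and 0.63 with arsenic and mercury, both called, and 0.05 with cadmium. Among the tested conjugate exporters, 1, 0, and 2 of 5 rose.

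Of 11 tested genes of cholesterol efflux and of the liver X receptor, which include ABCA1, 1, 0, and 4 rose and 2, 0, and 3 fell. MYLIP, a liver X receptor target that degrades the LDL receptor, rose with mercury (LFC 2.15, adjusted p = 1.47e-05), and SREBF1, another target of that receptor, fell with mercury (LFC -1.04, adjusted p = 0.000815), so the members of this list did not move one way. Of 22 genes of mitochondrial iron-sulfur cluster and heme synthesis, in the surroundings of ABCB10, 5, 1, and 7 rose and 0, 0, and 2 fell. FTH1, the ferritin heavy chain gene, had LFCs of 1.78, 0.88, and 1.88, and FECH, which makes heme, had 0.82 and 1.14 with arsenic and mercury, both called. HSCB, a cochaperone of iron-sulfur cluster assembly, rose with mercury (LFC 0.91).

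Of 14 peroxisome genes, 0, 0, and 1 rose and 0 fell. The gene that rose was HSD17B4, of fatty acid oxidation, with mercury (LFC 0.45, adjusted p = 0.0123). Of 12 genes of ribosome recycling and GCN2 signalling, 2, 1, and 4 rose and 0, 0, and 2 fell. PELO, which works with ABCE1 in rescuing stalled ribosomes, had LFCs of 0.73 and 1.42 with arsenic and mercury, both called, while ABCE1 itself was at -0.16 and -0.25 without a call. The initiation factor gene EIF5 had LFCs of 0.37, 0.41, and 0.90, all called, and EIF2B4 fell with mercury (LFC -0.47). Of the ABC genes outside the naming rule, TAP2, a peptide transporter of antigen presentation, rose with arsenic (LFC 0.38, adjusted p = 0.0359).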

How the data were processed

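RNA of 1321N1 cells was measured by 3′ mRNA sequencing in 60 libraries, 3 per group. Alignment by the authors used STAR 2.7.9a on GRCh38 (submitters' processing notes), and exonic reads were summarised with GenomicAlignments (Union mode, GENCODE basic), so that a read on several genes was dropped. The deposited counts are whole numbers per gene without normalization, for 62703 genes. The labels' design text calls the replicates technical triplicates, so p-values measure only the spread between these samples.

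A single edgeR 4.0.16 fit (R 4.3.3) held all 60 libraries and had a coefficient per metal and time. Genes were kept by filterByExpr (minimum count 10, minimum total 15), which left 12341 genes, and scaled by TMM (factors 0.934 to 1.03). P-values of its quasi-likelihood test were adjusted (Benjamini-Hochberg) over all genes within each comparison. "Rose", "fell", and "called" mean an adjusted p under 0.05. Each metal was compared with non-treated cells and with the other metals at the same time, non-treated cells with those at 1.5 h, and the effect at 24 h with that at 12 h. Intervals of ratios of summed counts are exact (conditional binomial). On simulated counts the test recovered 28 of 67 genes changed 1.5-fold, 54 of 67 changed 2-fold, and 66 of 66 changed 4-fold, with 7 false calls. The changed genes were drawn only from better counted genes, so recovery for low members such as ABCA1, ABCC9, and ABCC10 was not simulated. At their depth, 3 counts in a median library are 0.911 CPM.

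The members, the gene lists, and the tests were chosen with earlier results of these data known. Members were named without a further selection, and some results are not reported here. From each list the 3 genes with the largest LFC at 24 h among those called were named. Alternatives were DESeq2 1.42.0, RLE size factors, no filter, a filter of 30 counts in 3 libraries, a fit of the compared libraries alone, a replicate block, and leaving out each library. Promoters came from RefSeq (GRCh38.p14) for 35 of 45 members, ABCC1 not among them. Overlaps of 3′ ends came from GENCODE release 44, whose coordinates for all 45 members equal those deposited. The genetic screens were not analysed here.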

Additional observations from a re-analysis of the deposited data

Results flagged for a closer look

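The effects of 2 metals, or of 1 metal at 2 times, differed by the test of the difference itself for 4 members. Of all genes, 5.77% differed for arsenic against cadmium at 12 h, 10.2% for that pair at 24 h, and 20% for cadmium against mercury at 24 h. For the effect at 24 h against that at 12 h, 1.57% differed with arsenic and 0.624% with mercury. At 24 h, arsenic exceeded cadmium for ABCC2 (LFC 0.56, adjusted p = 0.0256), and cadmium was below mercury (LFC -0.82, adjusted p = 0.000274). Its change against non-treated cells was larger at 24 h than at 12 h with arsenic (LFC 0.94, adjusted p = 0.0442) and with mercury (LFC 1.01, adjusted p = 0.0483). ABCC1 was lower with arsenic than with cadmium at 12 h (LFC -0.91, adjusted p = 0.0174) and at 24 h its level was lower for cadmium than for mercury (LFC -0.73, adjusted p = 0.0250). For ABCF3 at 12 h, arsenic exceeded cadmium (LFC 0.64, adjusted p = 0.0394), and ABCF2 was lower with arsenic than with cadmium at 24 h (LFC -0.44, adjusted p = 0.0276). Groups of 3 libraries are too small to tell an outlying library from ordinary spread. When libraries were left out 1 at a time, 7 of these 8 differences lost their call at least once.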

How the results depend on the processing

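All 13 calls against non-treated cells kept their direction under every alternative run. Those of ABCC9 with mercury at 12 and 24 h, of ABCC2 and ABCA3 with arsenic and mercury at 24 h, and of ABCA1 and ABCC1 with mercury at 24 h also stayed called under all of them, except that ABCA1 and ABCC9 had too few counts for a test under the stricter filter (30 counts in 3 libraries). The other 5 lost their call under at least 1 alternative. Of the 8 calls between metals or times, only that of ABCC2 for cadmium against mercury at 24 h stayed under all alternatives. Library depth limits the low members, since 3 counts in a median library are 0.911 CPM.

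The number of members called moved by over 1.5 times as follows, and the cause was not tested unless named. With DESeq2 it was 1 for cadmium at 6, 12, and 24 h, 1 for arsenic against mercury at 12 and 24 h, and 1 and 2 for non-treated cells at 12 and 24 h against 1.5 h. With only the libraries compared it was 0 for arsenic at 6 h, 1 for cadmium and 2 for mercury at 12 h, 1 for cadmium against mercury at 1.5 and 24 h, 2 for arsenic against mercury at 12 h, 1 for arsenic against cadmium at 24 h, 1 for non-treated cells at 12 h, and 0 for the arsenic effect at 24 h against 12 h. Without the filter it was 0 for arsenic at 6 h, 2 for mercury at 12 h, and 1 for arsenic against cadmium and against mercury at 12 h. With the stricter filter it was 1 for cadmium at 12 and 24 h, 0 for mercury at 12 h, where ABCC9 was no longer tested, 1 for arsenic against mercury at 12 h, and 1 for non-treated cells at 12 h. RLE size factors gave 1 for cadmium at 24 h.

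Leaving out each library gave 0 to 1 members called for each metal at 6 h, for cadmium and non-treated cells at 24 h, for arsenic against cadmium at 12 h, and for the arsenic and mercury effects at 24 h against 12 h. It gave 1 to 2 for cadmium and mercury at 12 h, 0 to 3 for arsenic against cadmium at 24 h, and 1 to 4 for cadmium against mercury at 24 h. Values that turned their sign were not called. The LFC of ABCC1 ranged from -0.38 to 0.085 with arsenic and -0.12 to 0.045 with mercury at 1.5 h, from -0.071 to 0.15 and -0.19 to 0.20 at 3 h, from -0.20 to 0.28 with arsenic at 12 h, and from -0.19 to 0.47 with cadmium at 24 h. That of ABCC2 with cadmium at 12 h ranged from -0.19 to 0.085.

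Same-numbered treated and non-treated libraries deviated from their group means with a median correlation of -0.00799 over 45 pairs, so the replicate numbers were not taken as pairs. With a replicate block the count was 1 for arsenic against mercury at 12 h and 0 for the mercury effect at 24 h against 12 h, and no other count moved by over 1.5 times. Replicates differed by more than sampling noise, with a chi-square per degree of freedom of at least 2.00.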

Other observations

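Among the members with too few counts for a test, ABCA4, known as a retinal lipid transporter, had 30 counts in the 15 mercury libraries, 15 in the cadmium, 12 in the arsenic, and 12 in the non-treated libraries. ABCA7, a lipid transporter known from microglia and neurons, had 22, 21, 17, and 17 counts in the same order, and ABCA12 had 17, 18, 19, and 27. These counts were not tested, and ABCA4 was named after its values were seen.

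In cadmium replicate 3 at 24 h, the library with the least ABCC1 of its group (10.1 CPM against 34.1 and 29.2), ABCC10 was also lowest, at 2.16 CPM against 7.50 and 8.30. ABCC4 in that library was at 30.5 CPM, where the nearer of the others was at 33.8 CPM, and ABCC5, at 30.9 CPM, lay between the others at 27.3 and 34.1.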
